A study of Mus musculus with 8 samples.

Results

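The suppressors of cytokine signaling (SOCS) family was followed in primary mouse cortical astrocytes with reduced GSTM1, a mu-class glutathione S-transferase. All 8 genes of the family (Socs1 to Socs7 and Cish) were found by symbol among the 54146 genes quantified in each library, and all 8 passed the filter on low counts in every fit. RNA-seq was run on 8 libraries, with 2 biological replicates for each of 4 groups, to ask how GSTM1 affects the response of astrocytes to the inflammatory cytokine TNF-α. The groups were control KD astrocytes (a non-silencing short hairpin RNA) and GSTM1 KD astrocytes (a short hairpin RNA against Gstm1), each left without stimulation (the basal level) or given TNF-α at 50 ng/ml for 6 h. Every culture came from cortical glia of C57BL/6 pups in the first postnatal week, carried a lentiviral pLKO-puro hairpin vector and was depleted of CD11b-positive microglia. The knockdown was thus made in a mixed glial culture and is not restricted to one cell type by a promoter. Below, genotype means the hairpin given, control KD or GSTM1 KD, and not a difference between mice.

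SOCS proteins are intracellular brakes on cytokine receptors that signal through JAK kinases and STAT transcription factors. Each holds an SH2 domain, which binds phosphorylated receptors or kinases, and a SOCS box, which recruits elongins and a cullin to mark bound proteins for degradation. Several members, Socs1, Socs2, Socs3 and Cish above all, are themselves transcribed when STATs are activated, so that their mRNA rises and falls with the cytokine signal. In astrocytes, SOCS3 is known as a brake on STAT3 in reactive gliosis and SOCS1 as a brake on interferon signaling.

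The labels were checked first on the targeted gene. In CPM (read counts scaled to a common library total with TMM factors), Gstm1 was at 231 and 377 in unstimulated and 209 and 391 in stimulated control KD libraries. GSTM1 KD libraries had 29.0 and 31.4 CPM unstimulated and 24.3 and 23.3 CPM stimulated, below every control KD library. TNF-α response was checked on 10 known target genes (such as Nfkbia, Icam1 and Ccl2). Past an edgeR adjusted p of 0.05, 10 rose in control KD and 9 in GSTM1 KD. Over all genes tested, 2.1% rose in control KD and 2.35% in GSTM1 KD. The 9 astrocyte markers summed to 2918 to 8893 CPM. Of the microglial and macrophage markers, Csf1r reached 2.71 CPM and C1qa 2.21 CPM, both higher in replicate 1 of every group, and P2ry12 was at 3 counts or fewer in all 8 libraries. The 9 oligodendrocyte lineage markers summed to 577 to 742 CPM in control KD and to 467 to 535 CPM in GSTM1 KD, mostly Olig1 (297 to 519 CPM) and Olig2 (47.3 to 150 CPM), while Mog and Mag were at the floor of 3 counts. The 8 neuronal markers summed to 396 to 505 CPM, with Map2 at 219 to 287 CPM and Snap25 at the floor. The 7 endothelial markers summed to 9.14 to 25.5 CPM, mostly Flt1, with Cldn5 and Tie1 at the floor. The 8 fibroblast and mural markers summed to 3014 to 3897 CPM in control KD and to 1647 to 2061 CPM in GSTM1 KD, and Acta2 alone gave 2747 to 3587 and 1335 to 1831 CPM of these. Expected counts summed to between 17349676 and 34434633 per library.

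The family held abundant and scarce members. Compared per length in TPM, Socs6 was the highest member in control KD at the basal level (28.3 ± 2.04, SD, n = 2), after TNF-α in control KD (29.4 ± 0.0141) and after TNF-α in GSTM1 KD (25.8 ± 0.431). Socs6, Socs5, Socs7 and Socs4 followed each other in that order in control KD at 28.3, 22.3, 17.2 and 13.5 TPM, with Socs3 among them at 21.1 ± 11.9 TPM. One Socs3 library, at 29.5 TPM, reached the range of Socs6. The libraries of Socs5, Socs3 and Socs7 overlapped in that order, whereas Socs6 stood above Socs5, and Socs4 above Socs2, without overlap. Cish (8.08 ± 1.14 TPM) and Socs1 (4.0 ± 0.658 TPM) were the lowest at the basal level in control KD, and did not overlap each other. In GSTM1 KD at the basal level, Socs3 (27.7 ± 4.84 TPM) lay above Socs6 (23.2 ± 0.735 TPM), and Socs1 was again lowest at 3.21 ± 0.523 TPM. The order changed most at the low end: after TNF-α in GSTM1 KD, Socs1 reached 17.9 ± 9.38 TPM, rank 4 of the 8 members, with Cish lowest at 7.83 ± 1.74 TPM. Its libraries, at 24.5 and 11.2 TPM, overlapped those of all members but Socs6 and Cish, so its rank among the others was not settled.

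**Figure D1:**
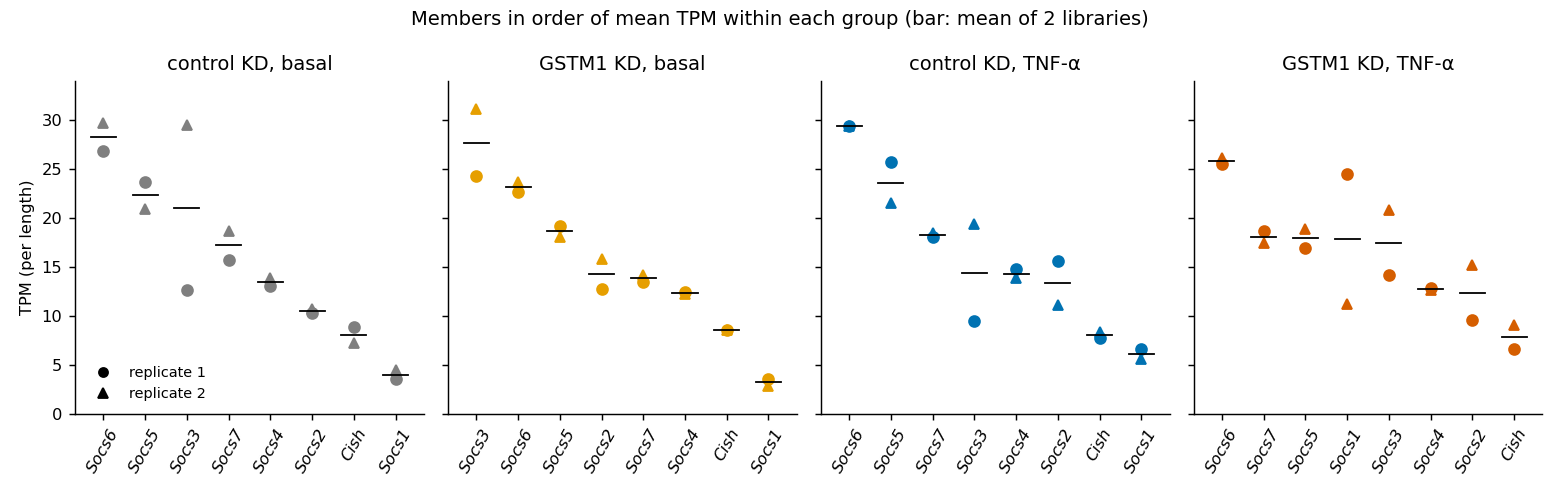
TPM of the 8 members in the 2 libraries of each group (circle, replicate 1; triangle, replicate 2), with the horizontal bar at the group mean and the members ordered by it. Socs1 is last in 3 panels, at 3.21 to 6.11 TPM, and has a mean of 17.9 TPM in GSTM1 KD after TNF-α, where its libraries overlap those of all members but Socs6 and Cish.

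Socs1 was the member that varied most across the 8 libraries, by 8.86-fold in CPM from lowest to highest, against 3.14-fold for Socs3 and 1.26-fold to 1.85-fold for the other 6 members. SOCS1 binds JAK1, JAK2 and TYK2 and inhibits their kinase activity, and its loss leaves cells open to unrestrained interferon signaling. At the basal level Socs1 was at 5.34 and 6.65 CPM in control KD (189 and 170 counts) and at 5.15 and 4.11 CPM in GSTM1 KD (120 and 82 counts). After TNF-α it was at 10.04 and 8.60 CPM in control KD (233 and 143 counts) and at 36.4 and 16.3 CPM in GSTM1 KD (788 and 284 counts). Both GSTM1 KD libraries after TNF-α lay above the other 6 libraries, and replicate 1 was 2.23-fold above replicate 2. TNF-α raised Socs1 in GSTM1 KD by 2.51 on the log2 scale (5.69-fold, SE 0.377, 95% interval 1.62 to 3.39, edgeR adjusted p = 0.0166). In control KD the 2 groups did not overlap either, but the change of 0.64 (1.56-fold, SE 0.364, interval -0.21 to 1.5) did not pass, with edgeR adjusted p = 0.607. That SE pools the spread of all 4 groups, while the control KD replicates differed by 1.24-fold without and 1.17-fold with TNF-α. The control KD change passed in 0 of 13 alternative fits, that of only the 4 control KD libraries among them. The difference between these responses was 1.87 (SE 0.517, interval 0.65 to 3.08), which did not pass over all genes (adjusted p = 1.00 in edgeR and 0.191 in DESeq2).

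Leaving out a library leaves 1 in its group, and fewer of all genes passed in the fits named here. Without either GSTM1 KD library of the basal level the Socs1 rise did not pass in edgeR, at log2 changes of 2.69 and 2.36. Without the higher GSTM1 KD library after TNF-α the rise was 1.81 and passed. Between the genotypes after TNF-α, Socs1 was higher in GSTM1 KD by 1.48 (2.78-fold, SE 0.389), a difference that missed the threshold in edgeR (adjusted p = 0.0568) and passed it in DESeq2 (adjusted p = 0.000654). It also passed in edgeR with the replicate number as a block, at 1.40 with adjusted p = 0.00480. Without the higher GSTM1 KD library after TNF-α this difference was 0.79 and did not pass in edgeR, in a fit where far fewer of all genes passed too. At the basal level Socs1 was 1.29-fold lower in GSTM1 KD without overlap, at -0.37 (SE 0.248, edgeR adjusted p = 0.355).

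**Figure D2:**
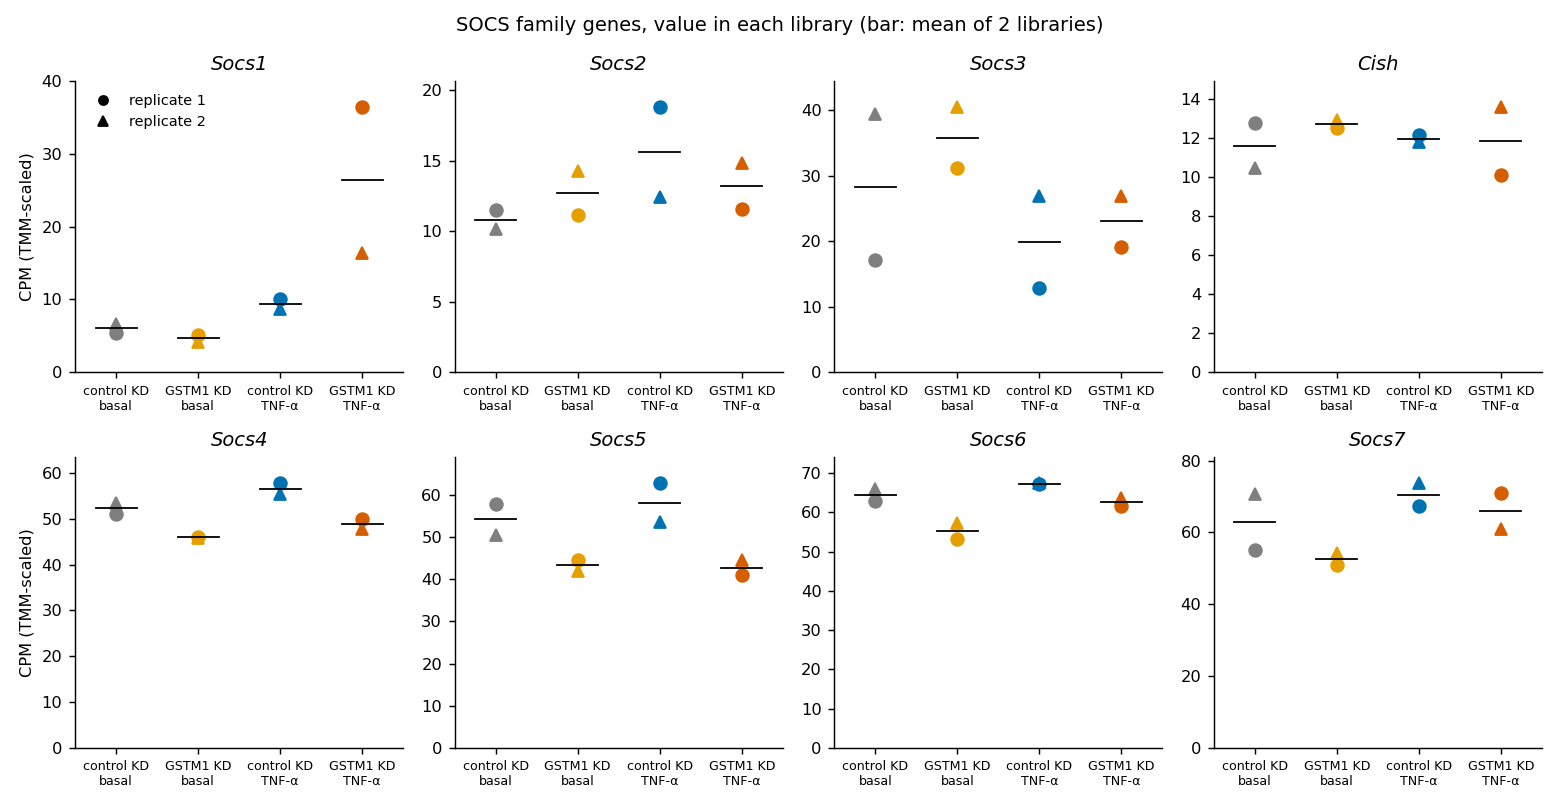
CPM of each member in each library, from 0, by group (circle, replicate 1; triangle, replicate 2), with the horizontal bar at the mean of the 2 libraries. Socs1 stands highest in GSTM1 KD after TNF-α at 36.4 and 16.3 CPM, and the Socs3 triangle lies above its circle in all 4 groups.

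Socs1 (ENSMUSG00000038037.5) lies at chr16:10782240-10785536 on the minus strand (GRCm38, GENCODE). The 250 bases before its RefSeq start (chr16:10785537-10785786, GRCm38.p6) lie outside annotated genes. They are shown because Trim30a and Trim30d, 2 of the 3 genes most like Socs1 in pattern, carry the same kind of match near their starts. The Trim30 genes are close paralogs, and Dhx58, the nearest of the 3, was not searched. Capitals mark matches to GAAANNGAA, the core of an interferon-stimulated response element (ISRE), searched on both strands of the 300-base window from 250 bases before to 50 after the start.
Socs1: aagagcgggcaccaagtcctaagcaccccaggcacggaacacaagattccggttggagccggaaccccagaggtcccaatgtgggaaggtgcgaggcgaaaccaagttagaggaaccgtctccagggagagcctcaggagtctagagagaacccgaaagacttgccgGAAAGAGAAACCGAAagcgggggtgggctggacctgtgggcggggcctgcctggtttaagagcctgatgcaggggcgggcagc
The capitals hold 2 overlapping matches, at -83 to -75 and at -77 to -69 from the start, and 8.56% of 32851 RefSeq windows held at least 1. Such a match is a description of the letters, not a binding site.

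By the root mean square difference of centered log2 CPM over the 8 libraries, the genes most like Socs1 among 15332 were Dhx58 (0.117), Trim30a (0.160) and Trim30d (0.177), against a median of 1.01 over all genes. Dhx58, which encodes an RNA sensor of the RIG-I family, was at 21.7 and 11.2 CPM in GSTM1 KD after TNF-α and at 2.505 to 6.89 CPM in the other libraries. Trim30a was at 181 and 85.9 CPM in GSTM1 KD after TNF-α and at 20.8 to 54.8 CPM elsewhere. Trim30a and Trim30d are close paralogs whose shared reads RSEM divides between them, so their separate levels are uncertain. Windows of both Trim30 genes held GAAANNGAA on the opposite strand, shown in capitals as its reverse complement. The stretches shown lie outside annotated genes, and the window at another RefSeq start of Trim30a held a match inside an intron of Trim30a.
Trim30a, chr7:104465210-104465238, minus strand: gttctttagtTTCTTTTTCtcagttcctg
Trim30d, chr7:104507871-104507899, minus strand: gttctttagtTTCTTTTTCtcagttcctg
This match lies at -35 to -27 from the Trim30a start and at -40 to -32 from the Trim30d start.

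**Figure D3:**
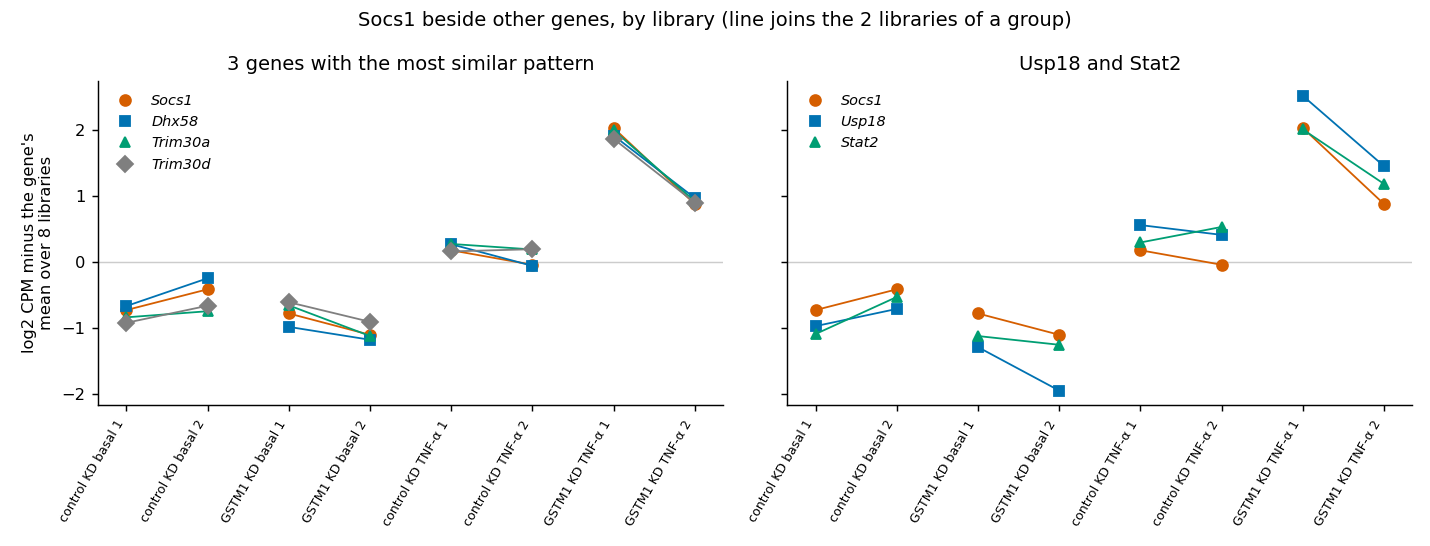
Log2 CPM minus each gene's mean over the 8 libraries, for Socs1 with the 3 genes nearest to it (left) and with Usp18 and Stat2 (right), a line joining the 2 libraries of a group. The genes on the left were chosen for their likeness to Socs1, which is highest in GSTM1 KD after TNF-α (2.03 in replicate 1 and 0.88 in replicate 2). Usp18 and Stat2, also highest there, were picked from lists as genes that passed with TNF-α in GSTM1 KD. Their likeness to Socs1 is thus not separate support.

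Socs3, the main brake on gp130 receptors such as those for IL-6 and LIF, had a lower mean after TNF-α than at the basal level in both genotypes, without passing the test. At the basal level it was at 17.2 and 39.4 CPM in control KD and at 31.1 and 40.4 CPM in GSTM1 KD. After TNF-α it was at 12.9 and 26.9 CPM in control KD and at 19.1 and 26.9 CPM in GSTM1 KD. The replicate 2 library was above the replicate 1 library in every group, by 1.3-fold to 2.29-fold, so control KD libraries with and without TNF-α overlapped, while in GSTM1 KD they did not. The TNF-α change was -0.51 (SE 0.459) in control KD and -0.64 (1.56-fold lower, SE 0.457) in GSTM1 KD, with edgeR adjusted p = 0.832 and 0.811, so neither passed. The interval of the GSTM1 KD change ran from -1.71 to 0.44, and that of the difference between the responses (-0.12) from -1.64 to 1.39. GSTM1 KD exceeded control KD in Socs3 by 0.34 before and 0.19 after TNF-α on the log2 scale, with overlapping groups and edgeR adjusted p = 0.577 and 0.733.

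The same split by replicate number was seen in the summed astrocyte markers. In control KD the sum was 2918 and 6706 CPM without TNF-α and 3034 and 6882 CPM with it. In GSTM1 KD it was 5891 and 8893 CPM without TNF-α and 6106 and 8757 CPM with it. Replicate 2 was the higher in all 4 groups, and within each replicate number the sums with and without TNF-α were close while Socs3 was lower with TNF-α. Gfap was the largest part of the sum in every library (921 to 5631 CPM), and is also among the genes linked to STAT3 followed below. The sum is thus not a measure of astrocyte share alone. S100b was the only marker in the sum to pass between genotypes. It was lower in GSTM1 KD, by a log2 change of -1.44 in unstimulated libraries (edgeR adjusted p = 0.0269) and -1.71 in stimulated ones (edgeR adjusted p = 0.0387). In bulk RNA, fewer cells of a type and less RNA per cell cannot be told apart. The part of the astrocyte share in the Socs3 values was not tested. The 3 genes nearest to Socs3 in pattern were Igsf11 (0.122), Vav3 (0.131) and Daam2 (0.133), against a median of 0.611 over all genes.

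**Figure D4:**
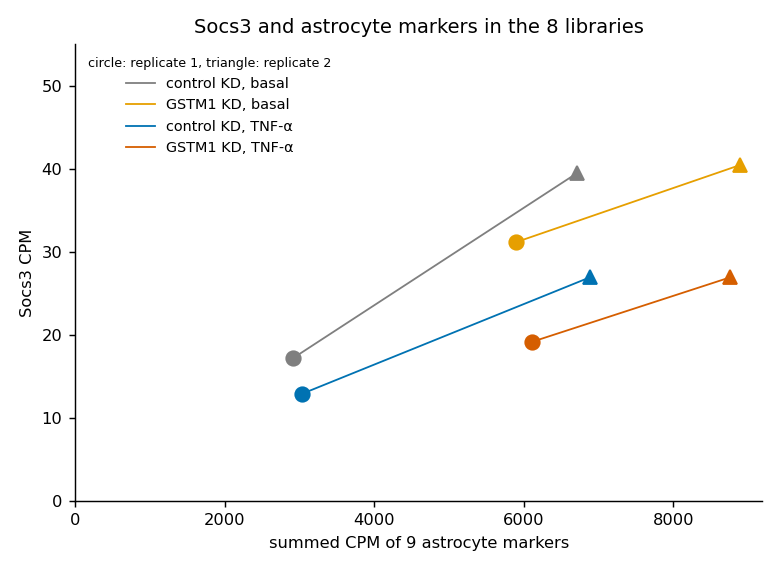
Socs3 CPM against the summed CPM of 9 astrocyte markers in the 8 libraries, a line joining replicate 1 (circle) to replicate 2 (triangle) of each group. Replicate 2 lies above replicate 1 on both axes in all 4 groups, and the 2 TNF-α lines run below the basal lines (12.9 to 26.9 against 17.2 to 40.4 CPM).

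Socs3 (ENSMUSG00000053113.3) lies at chr11:117966079-117970047 on the minus strand. Its window held 1 match to TTCNNNGAA, the letters of a STAT-type site, at -154 to -146 from the RefSeq start and inside an intron of another annotated Socs3 transcript. In Cish (ENSMUSG00000032578.7), at chr9:107296026-107302784 on the plus strand, 2 matches lay just after the RefSeq start, at 1 to 9 and 12 to 20, inside an annotated Cish exon. They are shown because both genes are classical STAT targets, and neither passed the test with TNF-α. Capitals mark TTCNNNGAA, which 8.3% of the RefSeq windows held.
Socs3, chr11:117969502-117969530, minus strand: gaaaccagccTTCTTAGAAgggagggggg
Cish, chr9:107296654-107296683, plus strand: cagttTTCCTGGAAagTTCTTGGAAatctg
The Socs1 window held no such match, the windows of Socs3, Socs4 and Cish held no GAAANNGAA, and an NF-κB-type motif, found in 8.46% of the windows, was in none of the windows of Socs1, Socs3, Socs4 and Cish. Of the genes nearest in pattern, a window of Vav3 (near Socs3) held an NF-κB-type match. A window of Pex16 (near Cish) held TTCNNNGAA. Other windows of Vav3 and Pex16, and those of Igsf11, Daam2 and Daglb, held no match.

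Cish encodes CIS, which competes with STAT5 for docking sites on receptors of the growth hormone and interleukin-2 type. Control KD libraries had 12.8 and 10.4 CPM of Cish without TNF-α and 12.1 and 11.8 CPM with it. GSTM1 KD libraries had 12.5 and 12.9 CPM without and 10.1 and 13.6 CPM with TNF-α. The groups overlapped in each comparison. The TNF-α changes were 0.04 (interval -0.38 to 0.46) in control KD and -0.11 (interval -0.53 to 0.32) in GSTM1 KD. Rises or falls within those bounds were not excluded. Exons of Gm17040 and Gm17041 overlap those of Cish on the other strand, and because use of the strand in counting is not stated, its counts are uncertain. Its nearest genes in pattern, Daglb, Tigd5 and Pex16, differed from it by only 0.0649 to 0.0738, but the median over all genes was 0.316 for so flat a profile.

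Socs2 (chr10:95385362-95417180, minus strand), a regulator of growth hormone receptor signaling, was at 11.5 and 10.1 CPM in control KD and at 11.1 and 14.3 CPM in GSTM1 KD at the basal level. After TNF-α it was at 18.8 and 12.5 CPM in control KD and at 11.5 and 14.8 CPM in GSTM1 KD. Only the control KD libraries with and without TNF-α did not overlap, at a change of 0.53 (SE 0.239, interval -0.03 to 1.1) with edgeR adjusted p = 0.438. Its effective length ran from 1559 to 2069 bases over the libraries, a ratio of 1.33 that was the widest of the family. With these lengths as offsets the TNF-α change of Socs2 in GSTM1 KD was -0.18 in place of 0.05.

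Socs4, Socs5, Socs6 and Socs7 each had a lower mean in GSTM1 KD than in control KD in both states. SOCS4 and SOCS5 are linked to the epidermal growth factor receptor, and SOCS6 and SOCS7 to receptor tyrosine kinase and insulin signaling. Socs5 (chr17:87107679-87137839, plus strand) stood at 57.9 and 50.6 CPM in unstimulated and 62.8 and 53.7 CPM in stimulated control KD libraries, and at 44.6 and 42.1 CPM in unstimulated and 41.0 and 44.7 CPM in stimulated GSTM1 KD libraries. All 4 GSTM1 KD libraries lay below all 4 control KD libraries. Its difference was -0.32 (1.25-fold lower, SE 0.118, edgeR adjusted p = 0.130) at the basal level and -0.47 (1.39-fold lower, SE 0.124, edgeR adjusted p = 0.0567) after TNF-α, and neither passed. When all 8 libraries shared one fit, the latter was -0.45 and passed in edgeR with adjusted p = 0.0368. With the replicate number as a block both passed in edgeR, with adjusted p = 0.0406 for unstimulated and 0.0237 for stimulated libraries.

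Socs4 (chr14:47276931-47296102, plus strand) stood at 51.0 and 53.5 CPM in unstimulated and 57.8 and 55.4 CPM in stimulated control KD libraries, and at 46.1 and 45.7 CPM in unstimulated and 49.8 and 47.8 CPM in stimulated GSTM1 KD libraries. GSTM1 KD lay below control KD without and with TNF-α, with no overlap, by 1.14-fold and 1.18-fold, with edgeR adjusted p = 0.261 and 0.145. Socs6 stood at 62.8 and 65.9 CPM in unstimulated and 67.2 and 67.4 CPM in stimulated control KD libraries, and at 53.3 and 57.3 CPM in unstimulated and 61.5 and 63.7 CPM in stimulated GSTM1 KD libraries. Its genotypes did not overlap either, GSTM1 KD being lower by 1.17-fold and 1.09-fold, with edgeR adjusted p = 0.205 and 0.347. Socs7 (chr11:97362551-97398542, plus strand) stood at 55.2 and 70.7 CPM in unstimulated and 67.3 and 73.7 CPM in stimulated control KD libraries, and at 51.0 and 54.2 CPM in unstimulated and 71.0 and 60.9 CPM in stimulated GSTM1 KD libraries. Its genotypes overlapped after TNF-α and not at the basal level, where it was 1.2-fold lower in GSTM1 KD (edgeR adjusted p = 0.276). The TNF-α changes of these 4 genes ran from -0.02 to 0.33, and none passed. Markers of other cells moved between genotypes too. Olig2, and Acta2 and Col1a2 of the fibroblast and mural list, were lower in GSTM1 KD in both states, Olig1 was lower after TNF-α, and Pdgfrb was higher after TNF-α (0.81). Their part in the offsets of these 4 members was not tested.

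Over the family, 0 of 8 members passed between genotypes at the basal level in edgeR, against 10.2% of 14899 genes tested, with 1 member (Socs5) at an unadjusted p under 0.05, where 31.6% of all genes were, and 0 in DESeq2 (18.5%). After TNF-α 0 of 8 passed between genotypes in edgeR, against 16.2% of 14593 genes, with 2 members (Socs1 and Socs5) under 0.05 unadjusted, where 36.2% of all genes were, and 1 in DESeq2 (20.8%). Leaving out a single library, which leaves 1 library in its group, moved these counts and those of all genes. With TNF-α in control KD, 0 of 8 members passed in edgeR, against 2.63% of 15332 genes. There 0 members were at an unadjusted p under 0.05 (12.5% of all genes), and 0 passed in DESeq2 (4.28%). With TNF-α in GSTM1 KD, 1 of 8 (Socs1) passed in edgeR (2.65% of all genes), and 1 in DESeq2 (3.75%). In GSTM1 KD 2 members (Socs1 and Socs7) were at an unadjusted p under 0.05, where 10.9% of all genes were. For the difference of the responses 0 of 8 passed, as did 0% of 15332 genes in edgeR, with 1 member and 295 genes at an unadjusted p under 0.05, and 27 genes in DESeq2. Median log2 changes of the 8 members were -0.20 and -0.12 between genotypes and 0.11 and 0.07 with TNF-α, where the medians of all genes lay between -0.02 and 0.02. These comparisons share libraries, so their values are given side by side and not as separate support. An exact permutation test was not used because 2 libraries against 2 cannot go below p = 0.333.

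**Figure D5:**
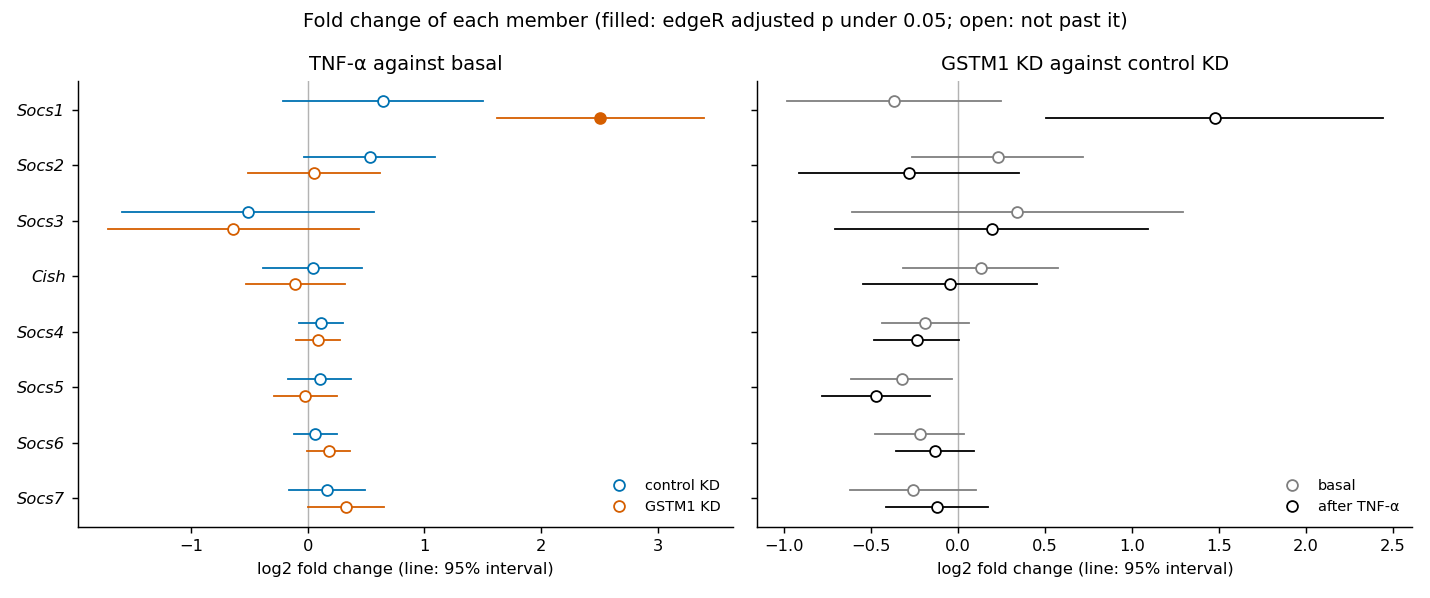
Log2 fold changes of the 8 members with 95% intervals from edgeR, for TNF-α against the basal level (left; blue, control KD; orange, GSTM1 KD) and GSTM1 KD against control KD (right; gray, basal level; black, after TNF-α). Only Socs1 with TNF-α in GSTM1 KD (2.51) is filled as past the threshold, and the intervals of Socs3 are the widest with TNF-α.

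Of the JAK and STAT genes, whose products SOCS members restrain, Tyk2 (1.05) and Jak2 (0.86) rose with TNF-α in control KD on the log2 scale, and Stat2 (2.85) and Tyk2 (1.03) rose in GSTM1 KD. Between genotypes after TNF-α, Stat2 (1.22) was higher in GSTM1 KD, and Stat6 (-0.81) and Jak2 (-0.44) were lower. Stat6 was also lower at the basal level (-0.90). Stat3, which drives Socs3, changed by 0.31 in control KD and 0.37 in GSTM1 KD with TNF-α, and neither passed (edgeR adjusted p = 0.855 and 0.861).

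Among 12 other inhibitors of the pathway, Usp18 codes for a protein that blocks the type I interferon receptor. Its mRNA was at 182 and 86.8 CPM in GSTM1 KD after TNF-α, 46.7 and 42.1 CPM in control KD after TNF-α, and 8.17 to 19.3 CPM at the basal level. It rose by 3.67 with TNF-α in GSTM1 KD (SE 0.383, edgeR adjusted p = 0.00389), the only one of the 12 to pass, and was 1.57 higher than in control KD (edgeR adjusted p = 0.0387). In control KD, 0 of 12 passed in edgeR, against 2.63% of all genes (2.65% in GSTM1 KD), and Usp18 changed by 1.33 (edgeR adjusted p = 0.129). There 4 of the 12 were at an unadjusted p under 0.05 (12.5% of all genes), and 2 passed in DESeq2 (4.28%). Pias1, a SUMO ligase that acts on STAT proteins, was lower in GSTM1 KD by 0.49 on the log2 scale in both states.

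Of the cytokine receptors that couple to JAKs, 20 of 28 were tested with TNF-α. In control KD 4 rose (Il15ra 2.37, Ifngr2 1.34, Ifngr1 0.75 and Ifnar1 0.44), against 2.1% of all genes. In GSTM1 KD 3 rose (Il15ra 1.77, Ifngr2 1.73 and Ifngr1 0.77), against 2.35% of all genes. Ifngr1 and Ifngr2 code for the chains of the interferon-γ receptor, whose signal SOCS1 restrains. Between genotypes, Il6ra (1.33 and 1.76) and Crlf2 (0.89 and 0.77) were higher in GSTM1 KD without and with TNF-α, and Il11ra1 (0.50) with it. Ifngr2 was lower at the basal level (-0.76), and Il4ra (-0.76) and Ifnar1 (-0.49) were lower after TNF-α. Osmr, a gp130 partner that SOCS3 restrains, was at 47.3 to 154 CPM in control KD and at 88.0 to 162 CPM in GSTM1 KD, was higher in replicate 2 of every group, and passed in none of the comparisons. Ghr, the growth hormone receptor, stayed within 41.0 to 47.4 CPM in the 8 libraries.

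Of 24 ligands of these receptors, 11 were tested with TNF-α. In control KD, Csf2 rose by 3.79, Il6 by 2.55 and Lif by 1.35 on the log2 scale. The rises in GSTM1 KD were 2.53 for Il6, 1.08 for Lif and 1.92 for Il15, and Csf2, with 0 counts in both basal libraries, was at least 3.96-fold higher against a floor of 3 counts per library (edgeR adjusted p = 0.0248). Lif was at 267 and 255 CPM in control KD and at 104 and 79.7 CPM in GSTM1 KD after TNF-α, 1.53 lower on the log2 scale in GSTM1 KD, and Il6 was lower there by 1.49. Between genotypes after TNF-α 5 of 11 ligands tested were lower in GSTM1 KD (8.92% of all genes) and 1, Il15 (1.3), was higher (7.26%). At the basal level 2 of 9 ligands tested were already lower (5.62% of all genes), Lif among them (-1.23, edgeR adjusted p = 0.0190). The difference of the Lif responses to TNF-α was -0.28 and did not pass. Csf2 had 94 and 68 counts in control KD after TNF-α and 14 and 8 in GSTM1 KD (log2 change of -2.87). Ifnb1, the gene of interferon-β, had 0 counts in all 4 basal libraries, 7 and 1 in stimulated control KD and 25 and 9 in stimulated GSTM1 KD libraries, and its difference between genotypes of 2.06 did not pass (edgeR adjusted p = 0.115). Ifng had 0 counts in all 8 libraries.

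Of 13 genes linked to STAT3, Bcl3, Junb and Cebpb rose with TNF-α in both control KD (2.44, 1.94 and 1.60) and GSTM1 KD (2.44, 2.37 and 1.2). Fos, singled out after its values were seen, was lower with TNF-α, with no overlap of the libraries, in control KD (-1.01) and GSTM1 KD (-0.96), and did not pass (edgeR adjusted p = 0.240 and 0.307). After TNF-α, Timp1 (-1.57), Myc (-1.04), Serpina3n (-0.85) and Mcl1 (-0.57) were lower in GSTM1 KD, as were 8.92% of all genes. At the basal level 3 of the 13 were lower, against 5.62% of all genes. Junb, Cebpb and Bcl3 also respond to other transcription factors, NF-κB among them. For the machinery through which the SOCS box acts, 9 genes for elongins, cullins and their partners were tested. In any comparison 0 passed in edgeR (0 at an unadjusted p under 0.05, and 0 in DESeq2), where 0% to 16.2% of all genes passed in edgeR. The list's median stayed between -0.04 and 0.11. Of 27 other genes with a SOCS box, 17 were tested with TNF-α, and only Spsb1 rose, by 0.50 in control KD (edgeR adjusted p = 0.0335). Between genotypes at the basal level, 0 of the 17 tested were higher in GSTM1 KD (4.6% of all genes) and 3 were lower (5.62%). After TNF-α 1 of 16 tested, Asb13 (0.78), was higher (7.26% of all genes) and 2 were lower (8.92%). Spsb3 was among the lower in both states, by 0.80 on the log2 scale at the basal level and by 0.83 after TNF-α.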

How the data were processed

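RNA was harvested with an RNeasy kit and libraries were made with a directional kit. Reads were mapped by the authors to GRCm38 with STAR (version 2.5.4b) and quantified with RSEM (version 1.3.0). Per gene and library the authors deposited an RSEM expected count (not normalized, and split among genes that share reads), a TPM value (per length, scaled to one total) and an effective length in bases. Whether counting used the strand is not given in the sources used here. Expected counts were rounded for testing. Totals of 17349676 to 34434633 left 19434 to 21610 of 54146 genes with a count. Intervals cover only the spread between the 2 libraries of a group, pooled over the groups in a fit.

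Tests were run in R (version 4.3.3) with edgeR (version 4.0.16), using TMM factors, filterByExpr and the quasi-likelihood method. P-values were adjusted by Benjamini-Hochberg over all genes tested, with a threshold of 0.05. Comparisons of genotypes used the 4 libraries of one state, and responses to TNF-α and their difference used all 8 libraries with 1 coefficient per group. p-values rest on the spread between the 2 cultures of a group, pooled over the groups in the fit and moderated across genes. Those of a response to TNF-α thus also carry the spread of the other groups. A level of 3 counts or fewer was taken as the floor. Alternatives were DESeq2 (version 1.42.0), other size factors, other filters, edgeR's newer quasi-likelihood method, offsets from the effective lengths, a replicate block, other sets of libraries and leaving out each library. The fits were tested on simulated counts. Members and gene lists were chosen with earlier results of these data known. Named are all members, Gstm1, from each list up to 4 genes past the threshold with the largest change and no overlap, others where their role needs it (2 listed genes are not reported here), and for Socs1, Socs3 and Cish the 3 genes nearest in centered log2 CPM (0.5 counts added). Sequences are from RefSeq (GRCm38.p6), which matched Socs1, Socs3, Socs4 and Cish, and gene positions from GENCODE vM21. Python (version 3.11.15) with matplotlib (version 3.10.9) drew the figures.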

Additional observations from a re-analysis of the deposited data

How the results depend on the processing

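The rise of Socs1 with TNF-α in GSTM1 KD kept its direction in all 13 alternatives and passed in 11, with edgeR or DESeq2 adjusted p of up to 0.183, and its log2 change ran from 1.81 to 2.97 when 1 library was left out. Over the log2 changes of the 8 members and all alternatives, 497 values kept their direction and their side of the threshold, 20 passed where the value reported had not, 2 no longer passed and 25 turned sign. Between genotypes after TNF-α, 0 members passed the threshold in the fit reported (16.2% of all genes). The number was 1 with DESeq2 (20.8%) and 1 with library size only (17.2%). It was 2 (Socs1 and Socs5) with no filter (18.8%), with the replicate block (29.5%) and with all 8 libraries (20.3%). At the basal level it was 1 (Socs5) with the replicate block (31.6%). With no filter it was 1 for TNF-α in control KD (Socs3, against 4.74% of all genes). Also with no filter, it was 2 for TNF-α in GSTM1 KD (Socs1 and Socs3, 3.97%) and 1 for the difference of the responses (Socs1, 0.506%). The cause was not tested. Leaving out 1 library gave 0 to 2 members between genotypes at the basal level, 0 to 3 after TNF-α, 0 to 0 for TNF-α in control KD, 0 to 1 in GSTM1 KD and 0 to 0 for the difference. Over all genes the counts moved more: 1524 at the basal level became 2494 with DESeq2, 3957 with no filter, 2762 with all 8 libraries and 1 to 5256 with 1 library left out. After TNF-α 2360 became 4540 with no filter and 0 to 5028 with 1 library left out. For TNF-α, 403 in control KD became 738 with DESeq2, 1255 with no filter, 72 with only those 4 libraries and 180 to 313 with 1 left out, and 406 in GSTM1 KD became 629, 1050, 691 and 74 to 255. For the difference 0 became 27, 134 and 0 to 2.

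Same-numbered libraries deviated together (correlations of 0.14 to 0.50 over 15332 genes), but with 2 numbers per group and no label of a shared culture they were not treated as paired. With the replicate block Socs1 after TNF-α differed between genotypes by 1.40 (edgeR adjusted p = 0.00480) and Socs5 by -0.47 (0.0237), Socs5 at the basal level by -0.32 (0.0406), and the genes past the threshold were 4712, 4302, 988, 808 and 0 in the 5 comparisons. With the block the Socs1 rise in GSTM1 KD was 2.47.

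Small changes turned sign when 1 library was left out. Between genotypes these were Socs3 (-0.14 to 1.05) and Cish (-0.0155 to 0.28) at the basal level, and Socs2 (-0.54 to 0.0592), Socs3 (-0.25 to 0.81) and Cish (-0.27 to 0.16) after TNF-α. With TNF-α they were Socs3 (-1.11 to 0.21), Socs5 (-0.0204 to 0.23), Socs7 (-0.0041 to 0.36) and Cish (-0.0836 to 0.20) in control KD, and Socs2 (-0.13 to 0.25), Socs5 (-0.0784 to 0.0403) and Cish (-0.33 to 0.0898) in GSTM1 KD. For the difference they were Socs3 (-0.85 to 0.47), Socs4 (-0.0720 to 0.0114), Socs5 (-0.25 to 0.0032), Socs7 (-0.0352 to 0.33) and Cish (-0.38 to 0.0442). With effective lengths as offsets Socs2 turned to -0.18 with TNF-α in GSTM1 KD. Counting alone gives Socs1 a relative error of 11.04% at its lowest count of 82 and of 3.56% at its highest of 788.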
